A study of Homo sapiens with 9 samples.

Results

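RNA45SN5, TMEFF2 and PTPRO were followed in the RNA of vesicles that cells of H9, an established human embryonic stem cell (hESC) line, release into their medium. These genes were chosen from the measurements themselves, because non-fractionated vesicles held as much of their signal as microvesicles did. The values of their probe sets are therefore a description with no test: the choice used the MVs and hESEVs arrays, and the differences from EXOs rest on these arrays too. On the HG-U133 Plus 2.0 array, 8 of 54675 probe sets are annotated to the 3 genes: 2 to RNA45SN5 (gene ID 100861532), 3 to TMEFF2 (gene ID 23671) and 3 to PTPRO (gene ID 5800). A probe set is a group of short oligonucleotides read as 1 value. Beside them stand 6 control probe sets that the maker placed along 18S and 28S ribosomal RNA, at the 5′ end, in the middle and at the 3′ end of each.

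RNA45SN5 is 1 of 5 copies of the 45S gene that RefSeq lists for the human genome. Its transcript, made by RNA polymerase I in the nucleolus, is the long precursor from which 18S, 5.8S and 28S ribosomal RNA are excised, while the transcribed spacers between them are degraded. The copies are near-identical, so a probe set annotated to RNA45SN5 cannot tell them apart. TMEFF2 (tomoregulin-2) encodes a transmembrane protein with follistatin-like domains and an EGF-like domain, whose outer part is shed by proteases and which is known from brain and prostate. PTPRO, also called GLEPP1, encodes a receptor-type tyrosine phosphatase known from the podocytes of the kidney and from neurons.

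MVs (microvesicles), EXOs (exosomes) and non-fractionated hESEVs were each profiled on 3 arrays, 1 for each of 3 biological samples, so that the 9 arrays form 3 groups. All came from H9 cells grown without serum or feeder cells, with no treatment and no change of genotype. For MVs and EXOs, the medium was cleared at 300g for 10 minutes (200g in the descriptions of the MVs samples) and at 2800g for 40 minutes, which removes apoptotic bodies. MVs were then pelleted at 16500g for 1 hour, and EXOs from the remaining medium at 120000g for 2 hours. According to the labels, hESEVs were pelleted at 120000g for 2 hours after the 300g spin alone, with no spin at 2800g. The study's methods instead describe a clearing spin for hESEVs that also takes out apoptotic bodies, so the sources do not settle whether hESEVs still held them. These methods also give a faster and longer pelleting spin for hESEVs than the labels do. Vesicle type, the clearing of the medium and, where it differed, the pelleting spin cannot be told apart in comparisons with hESEVs. Nor, in any group, can fewer vesicles that carry an RNA be told apart from less of that RNA per vesicle. The p-values measure the spread between these samples only.

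The deposited MAS5 intensities are scaled so that the trimmed mean of every array is 500, and every difference is relative to that scale. On it, the median log2 difference over all tested probe sets was -0.29 for MVs minus EXOs, 0.20 for hESEVs minus MVs and -0.03 for hESEVs minus EXOs. The median signal was 358 to 365 on MVs arrays, 422 to 429.7 on EXOs arrays and 415 to 421 on hESEVs arrays. A background level was taken as the 90th percentile of 76 measured genes that are restricted to tissues such as liver, muscle or blood. It was 919 in MVs, 1295 in EXOs and 1056 in hESEVs. Markers of hESCs lay above it for 10 of 11 measured genes in MVs, 4 in EXOs and 9 in hESEVs. Markers of differentiated cells lay above it for 3 of 16 measured genes in MVs, 2 in EXOs and 3 in hESEVs. Differences were tested with limma over 54630 probe sets, and calls required at least 2-fold together with a p under 0.05 after Benjamini-Hochberg adjustment. For MVs minus EXOs, 7.24% of all probe sets were called higher in MVs and 1.96% higher in EXOs. For hESEVs minus MVs, 1.05% were called higher in hESEVs and 4.26% higher in MVs, and for hESEVs minus EXOs, 1.97% higher in hESEVs and 0.103% higher in EXOs. All arrays of MVs lay above all arrays of EXOs for 13.3% of the probe sets, hESEVs above MVs for 17.0% and hESEVs above EXOs for 8.72%.

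Both probe sets annotated to RNA45SN5 gave a low signal in EXOs, a clear one in MVs and the highest in hESEVs. Whether they read the precursor or the ribosomal RNA excised from it was not tested. For 225762_x_at, the MVs arrays read 4728, 4848 and 4665, the EXOs arrays 934, 681 and 1240, and the hESEVs arrays 6627, 7221 and 7424. All hESEVs arrays were above all MVs arrays, and all EXOs arrays lay under the EXOs background level. The suffix _x_at marks a probe set that has probes in common with other sequences. MVs exceeded EXOs 5.14-fold, a log2 difference of 2.36 (standard error 0.20). Set against the EXOs background level in place of the EXOs signal, it was at least 3.66-fold higher.

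The second RNA45SN5 probe set, 225767_at, read 1903, 1554 and 1469 in MVs, 33.4, 32.5 and 73.6 in EXOs, and 4770, 4238 and 3525 in hESEVs. The EXOs arrays sat near the floor of 32 to which lower signals were raised. The order of the 3 groups was the one seen with 225762_x_at. The log2 difference between MVs and EXOs was 5.24 (standard error 0.52). The size of that fold is uncertain, since it fell to a log2 difference of 4.03 with a floor of 100 and was at least 1.27-fold against the EXOs background level. From MVs to hESEVs, the log2 difference was 0.58 (standard error 0.18) for 225762_x_at and 1.35 (standard error 0.32) for 225767_at, given as a description. Against EXOs, hESEVs were at least 5.47-fold higher with the first probe set and at least 3.22-fold with the second, with the EXOs background level as the bound. Quantile normalization, median centring and a shift to the hybridization spike-ins left both RNA45SN5 probe sets highest in hESEVs and lowest in EXOs.

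TMEFF2 was bright with 1 of its 3 probe sets. With 224321_at, the MVs arrays read 16555, 17979 and 15738, the EXOs arrays 3141, 3542 and 4196, and the hESEVs arrays 28363, 22638 and 23086. No group overlapped another, and every array was above its background level. MVs exceeded EXOs 4.65-fold (log2 difference 2.22, standard error 0.12), and quantile normalization between arrays reduced the log2 difference to 0.53, under 2-fold. The log2 difference of hESEVs minus MVs was 0.55 (standard error 0.13), a 1.47-fold higher mean in hESEVs, given as a description. The highest of the hESEVs arrays was replicate 1.

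The other TMEFF2 probe sets did not show this. With 223557_s_at, the MVs arrays read 283, 395 and 269, the EXOs arrays 337, 188 and 301, and the hESEVs arrays 248, 406 and 319.6. With 233910_at, they read 164, 167 and 22.1 in MVs, 307, 125 and 36.1 in EXOs, and 211, 196 and 166 in hESEVs. On all 9 arrays both were under the background level, and the groups overlapped. The log2 difference of MVs minus EXOs was 0.22 (standard error 0.46) for 223557_s_at and -0.22 (standard error 0.98) for 233910_at. Averaged over its 3 probe sets, TMEFF2 had a log2 difference of 0.74, and RNA45SN5 averaged over 2 had 3.80.

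PTPRO was likewise bright with 1 of its 3 probe sets. With 211600_at, the MVs arrays read 15473, 16993 and 17292, the EXOs arrays 2044, 1779 and 2252, and the hESEVs arrays 17156, 17235 and 15643. The MVs and hESEVs arrays overlapped, with means of 16586 ± 975 and 16678 ± 897 (SD, n = 3), and all were above the EXOs arrays. MVs exceeded EXOs 8.22-fold (log2 difference 3.04, standard error 0.11), and with quantile normalization the log2 difference was 1.72. The log2 difference of hESEVs minus MVs was 0.01 (standard error 0.10) as deposited, -0.20 with each array centred on its median and 1.33 with quantile normalization, so that its direction depends on the scaling. Among the member probe sets at or above the level of MVs, this one lay nearest to it.

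The remaining PTPRO probe sets were dim. With 208121_s_at, signals were 569, 512 and 346 in MVs, 651, 681 and 503 in EXOs, and 580.0, 608 and 540.2 in hESEVs. With 1554199_at, they were 26.9, 312 and 50.2 in MVs, 62.0, 53.8 and 63.0 in EXOs, and 48.0, 43.5 and 153 in hESEVs. Both stayed under the background level on every array, and their groups overlapped. The log2 difference of MVs minus EXOs was -0.38 (standard error 0.29) for 208121_s_at. It was 0.42 (standard error 0.81) for 1554199_at, and -0.57 without MVs replicate 2. The average of the 3 had a log2 difference of 1.03.

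**Figure D1:**
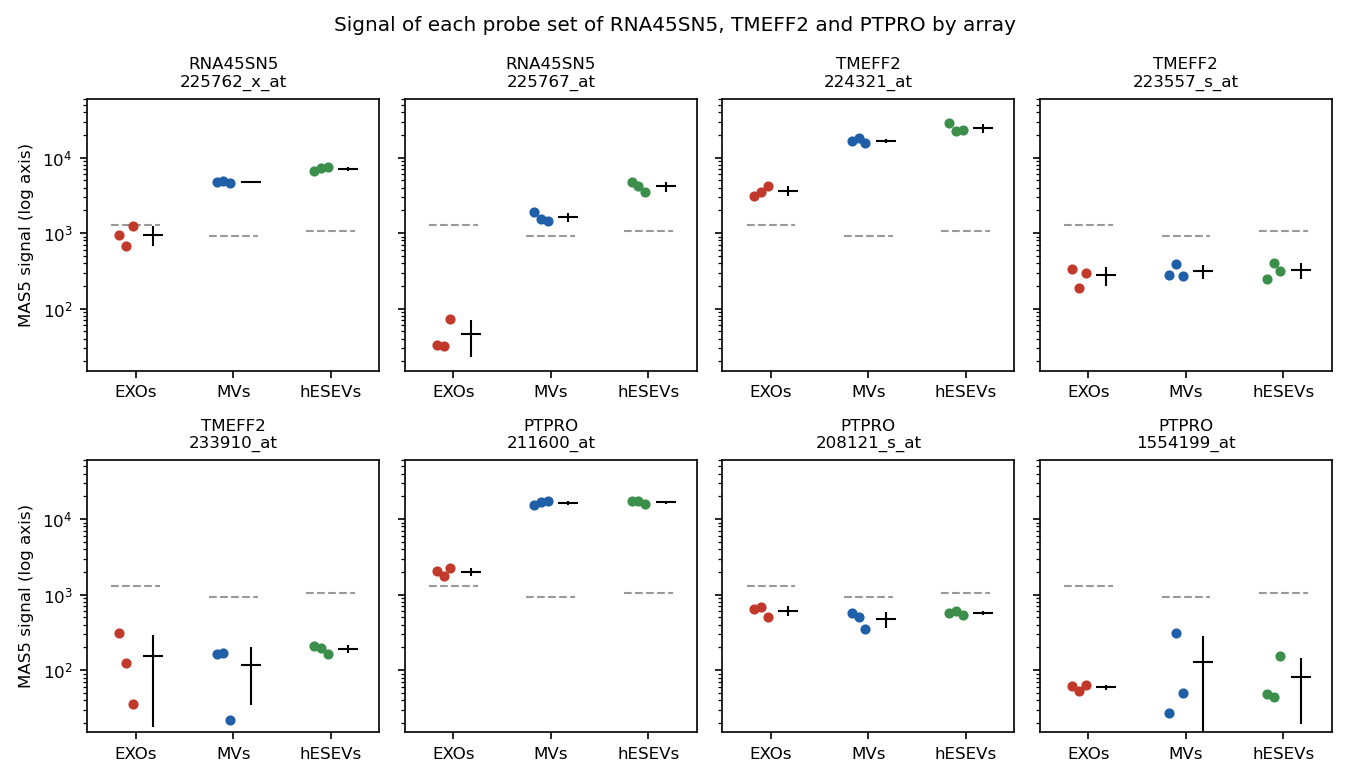
MAS5 signal (log axis) of each probe set of RNA45SN5, TMEFF2 and PTPRO on the 9 arrays, by vesicle type. Points are arrays, crosses the mean ± SD of 3 arrays (SD bars may run off the lower end of the axis), and dashed lines the background level of each group. Both RNA45SN5 probe sets and 1 each of TMEFF2 and PTPRO reach MVs means of 1642 to 16758, while the other 4 stay under the dashed lines.

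In the limma fit of all probe sets, 4 of the 8 probe sets of the 3 genes met the thresholds for higher in MVs than in EXOs, as did 7.24% of all probe sets. Since the MVs arrays also served to choose these genes, the count is a description from which nothing is read. For some other genes too, the brightest probe set was called and the remaining ones were not. How dim these remaining ones were was not counted. The shares below therefore do not show how common a split as wide as in TMEFF2 and PTPRO is. Of 289 genes with at least 2 probe sets whose brightest was called higher in MVs with an MVs signal above 5000, 109 (37.7%) had no other probe set called. Among the 82 of these with 3 probe sets, TMEFF2 and PTPRO included, it was 27 (32.9%). What RNA the bright probe sets of RNA45SN5, TMEFF2 and PTPRO hybridised to was not tested, because the sequences of their probes were not analysed here.

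The control probe sets of ribosomal RNA differed in pattern along each molecule. The 28S control at the 5′ end read 63321, 68433 and 59294 in MVs, 4686, 4739 and 5127 in EXOs, and 71715, 57588 and 60485 in hESEVs. MVs and hESEVs overlapped far above EXOs, as with PTPRO 211600_at. The MVs signal of the 5′ control exceeded that of EXOs 13.1-fold (log2 difference 3.71, adjusted p = 7.2e-07 from limma, and 1.59 with quantile normalization) and the hESEVs signal exceeded it 13.0-fold (3.70, adjusted p = 6.5e-08). The middle 28S control had signals of 20919, 20386 and 20850 in MVs, 5051, 5140 and 5431 in EXOs, and 22679, 18666 and 18314 in hESEVs. MVs exceeded EXOs 3.98-fold here (log2 difference 1.99, adjusted p = 2.7e-06), although with quantile normalization the log2 difference turned to -0.10. Between hESEVs and MVs, neither control passed the test, with log2 differences of -0.01 (standard error 0.12, adjusted p = 0.97) at the 5′ end and -0.07 (standard error 0.10, adjusted p = 0.75) in the middle, which became 1.27 and 1.40 with quantile normalization. The 3′ control of 28S lay under the background level in all groups, with means of 710.3 ± 179 in MVs, 782 ± 185 in EXOs and 809 ± 163 in hESEVs (SD, n = 3), and passed no test.

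For 18S ribosomal RNA, the control at the 3′ end followed the order of the RNA45SN5 probe sets. It read 8654, 10255 and 8921 in MVs, 4114, 4319 and 5008 in EXOs, and 19829, 17324 and 17983 in hESEVs, with no overlap between groups. MVs exceeded EXOs 2.07-fold (log2 difference 1.05, adjusted p = 0.00065 from limma), a difference that turned to -0.70 on the log2 scale with quantile normalization and fell just under 2-fold without EXOs replicate 1 (0.99) or without MVs replicate 2 (0.98). In hESEVs it was 4.11-fold higher than in EXOs (adjusted p = 1.4e-06) and 1.98-fold higher than in MVs (log2 difference 0.99, adjusted p = 0.00019), just short of the 2-fold threshold. The latter log2 difference was 2.30 with quantile normalization, and 1.06, 1.03 and 1.00 without MVs replicate 2, hESEVs replicate 2 or hESEVs replicate 3, each of which passed. The 5′ control of 18S was lower in MVs than in EXOs, with means of 3575 ± 47.5 and 4813 ± 363, and highest in hESEVs at 6466 ± 492 (SD, n = 3). On the deposited scale none of its differences reached 2-fold (hESEVs minus MVs 0.85, adjusted p = 0.0002, and MVs minus EXOs -0.43, adjusted p = 0.022). With quantile normalization, EXOs were the highest, by a small margin over hESEVs (hESEVs minus EXOs -0.27), and both of these log2 differences passed, at 1.77 and -2.04. In the middle of 18S, the means were 4682 ± 206 in MVs, 4154 ± 669.6 in EXOs and 5886 ± 179 in hESEVs (SD, n = 3), and the MVs and EXOs arrays overlapped. The hESEVs minus MVs log2 difference of the middle control was 0.33 (adjusted p = 0.12 from limma), which with quantile normalization became 1.31 and passed. EXOs and hESEVs were then about level (hESEVs minus EXOs -0.05).

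**Figure D2:**
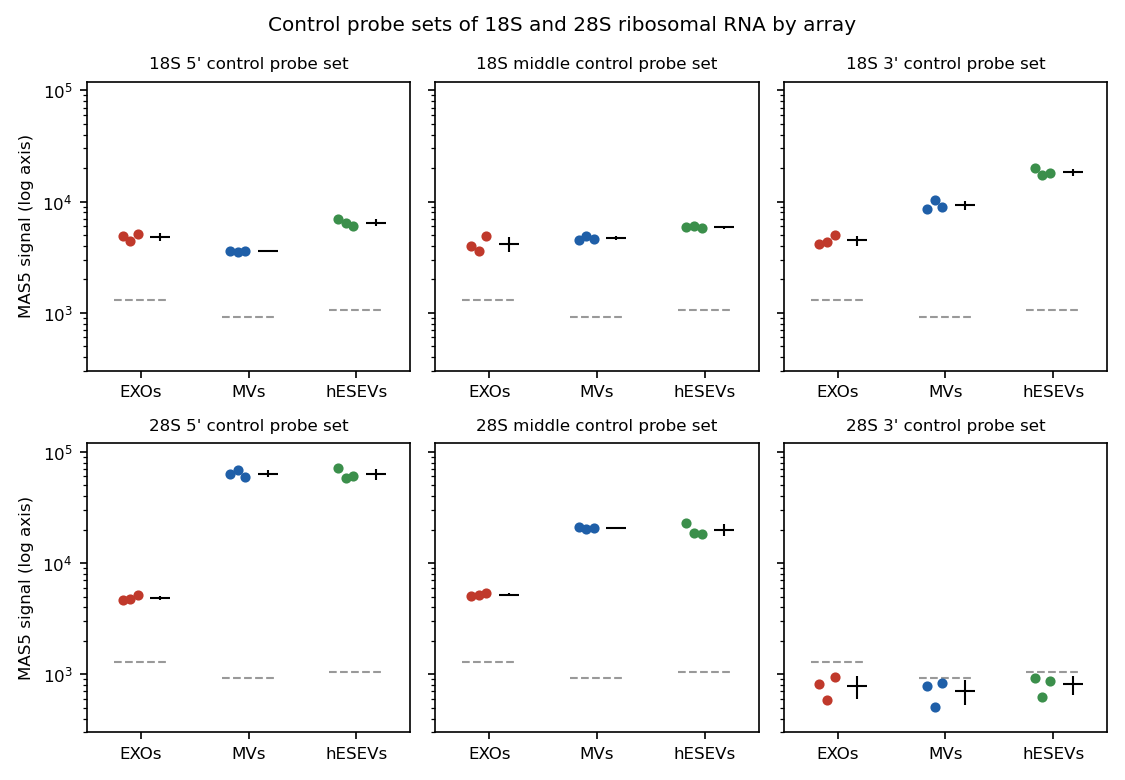
MAS5 signal (log axis) of the control probe sets of 18S and 28S ribosomal RNA on the 9 arrays, with points for arrays, crosses for the mean ± SD of 3 arrays and dashed lines for the background level of the group. The 28S 5′ and middle controls reach the same height in MVs and hESEVs, 63683 and 63263 at the 5′ end, the 18S 3′ control is highest in hESEVs at 18379, and the 28S 3′ control stays under the background level in all groups. These orders are those of the deposited scale, and with quantile normalization the 28S middle and 18S 3′ controls were no longer higher in MVs than in EXOs.

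The difference between the 3′ and the 5′ control within an array is not changed when all signals of that array are scaled by 1 factor. For 18S, the log2 signal of the 3′ minus the 5′ control was 1.37 ± 0.15 in MVs, -0.11 ± 0.12 in EXOs and 1.51 ± 0.08 in hESEVs (SD, n = 3). By the exact permutation test, two-sided, each comparison of 18S with EXOs gave p = 0.1, the smallest that 3 arrays against 3 allow (0.12 when adjusted over 12 comparisons), and hESEVs against MVs, which lay 0.14 apart, gave p = 0.3. For 28S the difference was -6.52 in MVs, -2.66 in EXOs and -6.30 in hESEVs, but since its 3′ control lay under the background level everywhere, these values mainly restate the 5′ signal and no test of them is given. The controls of GAPDH and ACTB, which encode a glycolytic enzyme and β-actin, had 3′ minus 5′ values that were lower in hESEVs than in MVs by 0.49 and 1.33 on the log2 scale (exact permutation p = 0.1 for each, 0.12 when adjusted).

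**Figure D3:**
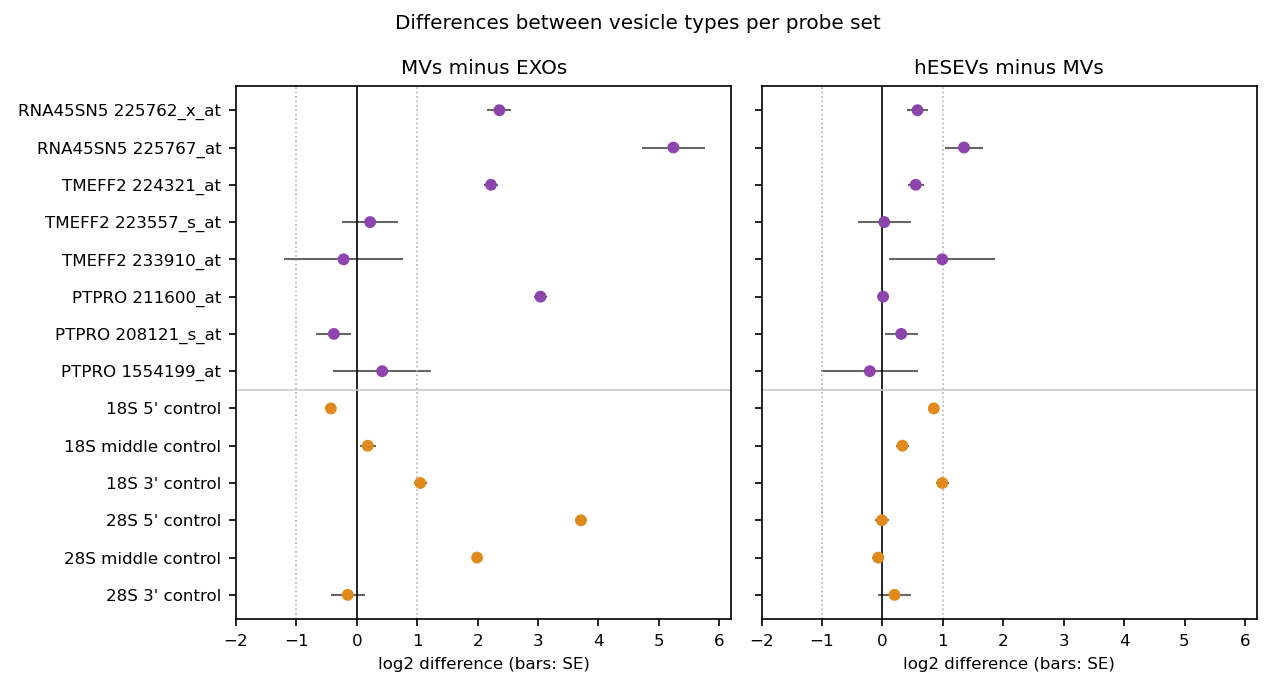
Log2 difference (horizontal axis) of each probe set of the 3 genes (purple) and of each ribosomal RNA control (orange), for MVs minus EXOs at left and hESEVs minus MVs at right. Bars are standard errors, drawn only where they exceed the point, and dotted lines mark 2-fold. In the left panel, both RNA45SN5 probe sets, 1 of TMEFF2, 1 of PTPRO and the 28S 5′ and middle controls lie at 1.99 to 5.24, and in the right panel the same probe sets lie between -0.07 and 1.35. Quantile normalization turned the 18S middle, 18S 3′ and 28S middle controls of the left panel and the 28S 5′ and middle controls of the right panel to the other sign.

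How unusual hESEVs at the level of MVs were was described by their place between EXOs and MVs on the linear scale, where 0 is the mean of EXOs and 1 the mean of MVs. Over the 3953 probe sets called higher in MVs, the median place was 0.219 (quartiles 0.130 and 0.332), and 48 (1.21%) were at 1 or above. The place was 1.62 and 2.59 for RNA45SN5, 1.60 for TMEFF2 224321_at and 1.01 for PTPRO 211600_at, which is the property they were chosen for. Just under 1 lay the 28S 5′ control at 0.993 and the 28S middle control at 0.946, and the 18S 3′ control had the place 2.90. With each replicate left out in turn, the place stayed between 1.57 and 1.68 for RNA45SN5 225762_x_at, 1.46 and 1.68 for TMEFF2 224321_at, and 0.969 and 1.04 for PTPRO 211600_at. By contrast, the 3′ controls of GAPDH and ACTB were higher in MVs than in hESEVs by 3.48-fold (adjusted p = 4.1e-06 from limma) and 3.78-fold (adjusted p = 1.6e-06).

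**Figure D4:**
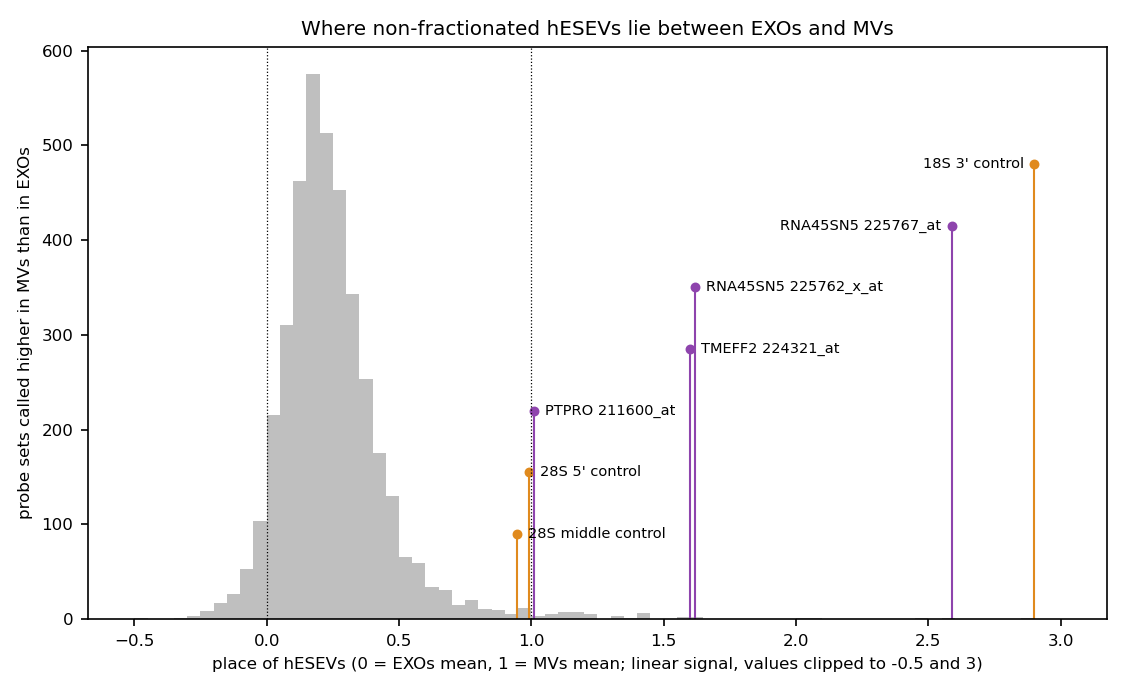
Number of probe sets (vertical axis) by the place of hESEVs between EXOs (0) and MVs (1) on the linear signal scale, for the 3953 probe sets called higher in MVs, with places beyond -0.5 and 3 set to those limits. Pins mark those of the 3953 that belong to the 3 genes (purple) or to the ribosomal RNA controls (orange), and their heights carry no value. The bulk lies around the median of 0.219, and the pins lie at 0.946 to 2.90.

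Of the 48 probe sets at 1 or above, 20 had an MVs mean above the background level. These were the 4 of RNA45SN5, TMEFF2 and PTPRO, the 18S 3′ control, 8 of mitochondrially encoded genes alone and 7 others. All 8 mitochondrial ones belong to COX1, COX2, COX3, ND2, ND4 and ATP6, which encode subunits of the respiratory chain and of ATP synthase. The brightest of the 7 others is annotated to both SH3KBP1 and the mitochondrially encoded ND3. Its means were 96091 in MVs, 6442 in EXOs and 104725 in hESEVs, with a place of 1.10. Some of the 7 have no annotated gene. Of 10 probe sets annotated to a mitochondrially encoded gene alone, 9 were called higher in MVs, and the places of these ran from 0.654 to 1.33 with a median of 1.16. The remaining 28 were under the background level in MVs.

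Mitochondrial RNAs were prominent among the probe sets most like the bright ones of the 3 genes over all 9 arrays. Among 7108 probe sets with 1 gene and a mean above background in some group, Pearson's r of the log2 signal was taken as the measure of likeness, as a description. The arrays of a group share their vesicle type, so that these values mostly follow the 3 group means. The 3 genes were chosen together for 1 pattern, so their likeness to one another follows from the choice, and the background filter admits RNA45SN5 through MVs and hESEVs, where it is high. For RNA45SN5 225762_x_at, the closest probe sets of other genes were TMEFF2 224321_at (r = 0.986), ATP6 (0.979), COX2 and ND4 (both 0.978) and ND2 (0.977). The closest to TMEFF2 224321_at were both of RNA45SN5 (0.996 for 225767_at and 0.986 for 225762_x_at), with ND4 (0.988), COX2 (0.986) and ND2 (0.986). For PTPRO 211600_at they were 2 probe sets of COX2 (0.998 and 0.997), COX1 (0.997), ND4 (0.997) and ATP6 (0.996). The 28S 5′ control had r = 0.969 with RNA45SN5 225762_x_at, 0.979 with TMEFF2 224321_at and 0.997 with PTPRO 211600_at. The dim probe sets of the same genes had r = 0.322 and 0.155 with TMEFF2 224321_at, and -0.429 and 0.155 with PTPRO 211600_at. ATP6, as an example of a mitochondrial RNA, had signals of 53232 ± 4027 in MVs, 2325 ± 657 in EXOs and 60237 ± 2240 in hESEVs (SD, n = 3).

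Next, the messenger RNAs of the machinery that makes and processes the precursor were examined. Genes were represented here by their brightest probe set, and of 19775 genes 10.9% were called higher in MVs than in EXOs and 2.13% higher in EXOs. For hESEVs minus MVs, these shares were 1.13% higher in hESEVs and 6.56% higher in MVs. The EXOs signals of the called genes named here lay under the EXOs background level, except that of NPM1, so the sizes of their folds are uncertain. Of 20 genes of RNA polymerase I and its factors, 6 were called higher in MVs, 14 were not called, and the median log2 difference was 0.68. The 6 were POLR2L (16.4-fold), POLR2E (5.30-fold), POLR2F (16.9-fold), POLR2K (5.59-fold), POLR2H (4.12-fold) and POLR1D (23.9-fold), all subunits that RNA polymerase I shares with other polymerases. No subunit particular to RNA polymerase I and none of its initiation factors, such as UBTF and RRN3, was among them. With the same 2-fold threshold, limma at an unadjusted p under 0.05 added no gene (the methods' t-test after adjustment called 3). Only 13 of the 20 genes lay above the background level in MVs and 3 in EXOs. For dim genes such as RRN3 (482 in MVs, 493 in EXOs), the lack of a call therefore says little. POLR1H, TTF1 and TAF1D had log2 differences of 0.69, 0.69 and 0.66 (adjusted p = 0.018, 0.029 and 0.045 from limma), under 2-fold. POLR2L had a signal of 14158 ± 398 in MVs, 875 ± 161 in EXOs and 6209 ± 731 in hESEVs (SD, n = 3), a place of 0.402, the highest of the 6. In hESEVs against MVs, 3 of the 20 were called higher in MVs, beside 6.56% of all genes, and none higher in hESEVs by limma, the methods' t-test or limma at an unadjusted p under 0.05.

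Processing factors of the precursor were measured for 37 of 40 genes, of which 20 were called as higher in MVs, beside 10.9% of all genes. The median log2 difference to EXOs was 1.67, and the methods' t-test after adjustment called 13. Of the 37, 23 lay above the background level in MVs. A high count was not particular to this list, since 10 of 11 measured hESC markers were called higher in MVs too. FBL, the methyltransferase of box C/D particles, was 16.0-fold higher in MVs (12225 ± 1031 against 773 ± 147, SD, n = 3, adjusted p = 1.5e-06 from limma). The RNA helicase DDX21 was 4.72-fold higher, the nucleolar protein genes NPM1 and NCL 6.24-fold and 6.98-fold, and NOP58, another core protein of box C/D particles, 5.50-fold. In hESEVs against MVs, 12 of the 37 were called higher in MVs, beside 6.56% of all genes, and none higher in hESEVs (17 and none at an unadjusted p under 0.05, and 10 and none by the methods' t-test), while 25 were not called. The median log2 difference was -1.22, and 5 of the 37 had a higher mean log2 signal in hESEVs. The places of the 20 genes called higher in MVs than in EXOs ran from 0.00451 to 0.554, with FBL (3079 ± 177 in hESEVs) at 0.201 and NPM1 at 0.240. XRN2, an exonuclease that was not called, had a place of 1.71 from dim signals of 384 in MVs and 537 in hESEVs, and most genes not called had no place, since MVs were under 2-fold over EXOs. Of 16 other RNAs that are not translated, only RPPH1, the RNA of ribonuclease P, had a probe set of its own. MVs exceeded EXOs 15.2-fold (adjusted p = 0.0039 from limma), with a place of 0.235. Both sizes are uncertain, since its signals of 85.8 in EXOs and 333 ± 333 in hESEVs (SD, n = 3) lay under the background level.

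**Figure D5:**
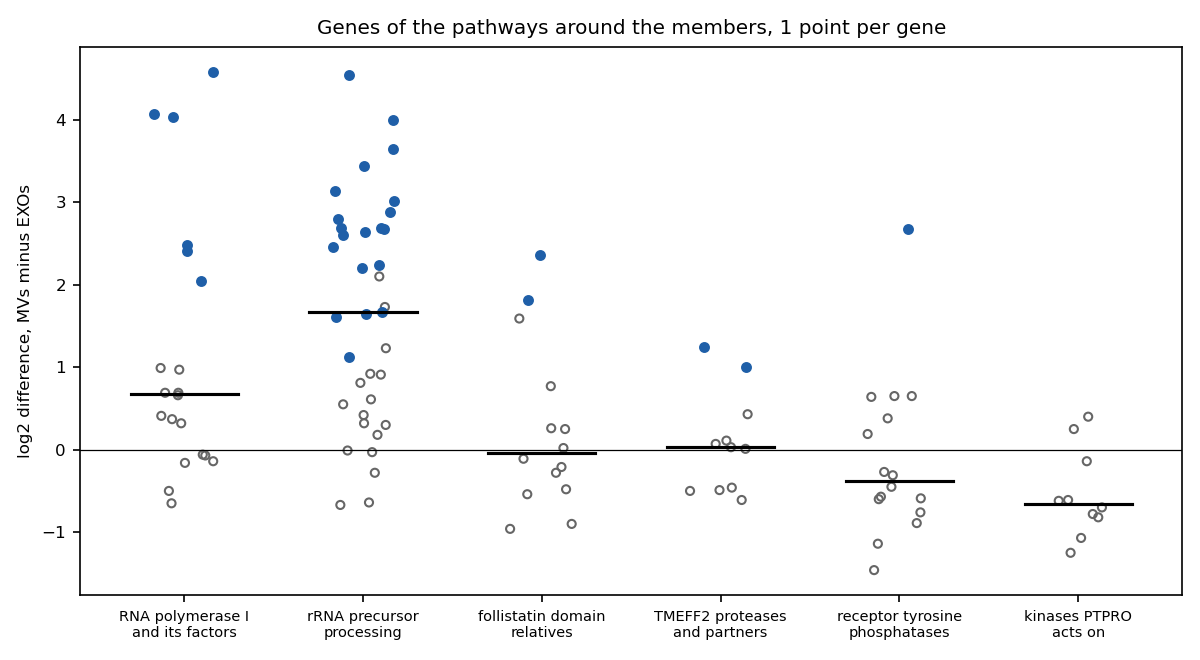
Log2 difference of MVs minus EXOs (vertical axis) for the genes of 6 lists, 1 point per gene by its brightest probe set. Filled points were called higher in MVs, open points were not called, and bars are the medians of the lists. The lists of RNA polymerase I and of precursor processing have medians of 0.68 and 1.67 with 6 and 20 called genes, and the lists around TMEFF2 and PTPRO have medians of -0.66 to 0.03 with 0 to 2. The median over all genes is -0.23.

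Genes around TMEFF2 were counted beside the 10.9% of all genes called higher in MVs. Of 14 measured genes with follistatin-like domains, 2 were called higher in MVs (1 after averaging of probe sets) and none higher in EXOs, with a median log2 difference of -0.05. They were FSTL1 (5.14-fold, adjusted p = 0.00011) and SPARC (3.53-fold, adjusted p = 0.0024), which encode secreted glycoproteins of the extracellular matrix. WFIKKN1, which encodes a secreted protease inhibitor, was not called, with a log2 difference of 1.59 (adjusted p = 0.14). Of 11 measured proteases, ligands and receptors around TMEFF2, 2 were called, both close to the threshold: ADAM10, a protease that sheds membrane proteins, at 2.00-fold (adjusted p = 0.04), and PSENEN, a subunit of γ-secretase, at 2.36-fold (adjusted p = 0.042), with an MVs signal of 825 that lay under the background level. Neither was called by the methods' t-test after adjustment, and the count fell to 1 with quantile normalization or with averaged probe sets. ACVR1B, an activin receptor, and ERBB4, a receptor of the EGF receptor family, had log2 differences of -0.49 (adjusted p = 0.14) and -0.50 (adjusted p = 0.16). WFIKKN1, ACVR1B and ERBB4 lay under the background level in MVs and in EXOs. FSTL1, SPARC, ADAM10 and PSENEN lay under it in EXOs, so the sizes of their folds are uncertain.

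Around PTPRO, 1 of 16 measured receptor-type tyrosine phosphatases was called higher in MVs, beside 10.9% of all genes, and the median log2 difference was -0.38. That median was -0.23 over all genes and -0.52 over the tissue-restricted genes of the background level. The called phosphatase was PTPRZ1, known from neural cells, with 2394 ± 467 in MVs, 371 ± 7.27 in EXOs and 559 ± 39.9 in hESEVs (SD, n = 3). It was 6.36-fold higher in MVs (adjusted p = 5.8e-05 from limma) and had a place of 0.0927. Both sizes are uncertain, since its EXOs and hESEVs signals lay under the background level. PTPRE had a log2 difference of -0.76 (adjusted p = 0.014), under 2-fold, and PTPRD and PTPRK had 0.64 (adjusted p = 0.079) and 0.65 (adjusted p = 0.089). Of 10 measured kinases and substrates of PTPRO, limma called none, with a median log2 difference of -0.66. At an unadjusted p under 0.05, 2 were higher in EXOs, and the methods' t-test after adjustment called none. With quantile normalization, 1 of these genes and 1 receptor-type tyrosine phosphatase were called higher in EXOs. NTRK3, a neurotrophin receptor, had -0.82 (adjusted p = 0.023, under 2-fold), and the ephrin receptor EPHA2 had -1.25 (adjusted p = 0.094). The kinase SYK and the ephrin receptor EPHA4 had -1.07 and -0.78 (both adjusted p = 0.15). The signals of EPHA2, SYK and EPHA4 stayed under the background level of either group, so their differences say little. Of these 10 genes, only 2 exceeded that level in MVs and 2 in EXOs, so their median rests mostly on dim signals.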

How the data were processed

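Total RNA was hybridised to 9 arrays. The authors summarised each probe set with MAS5 (version not given in the sources used here) and deposited intensities on a linear scale with a target of 500. Their RMA normalization was not repeated. The primer of the reverse transcription is not given in the sources used here. Groups came from the sample labels, and no column of sample values was left unused (0).

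The platform annotation paired 41091 probe sets with 1 gene, 1801 with several and 11777 with none. Gene IDs of 41037 were found in RefSeq (GRCh38.p14), and 0 symbols were updated. After 45 spike-in controls were left out, signals under 32 (3.39% to 5.50% of an array) were raised to 32, log2 was taken, and 54630 probe sets were tested in R 4.3.3 with lmFit and trended eBayes of limma 3.58.1 (two-sided, Benjamini-Hochberg), with 6 arrays for MVs minus EXOs and all 9 for the others. The procedure was tested on simulated data. The methods' t-test is the unpaired test named in the study's statistics, on the same values. The number of arrays limits the precision.

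The genes and lists were chosen with earlier results of these data known. Named were all probe sets of the 3 genes and of the ribosomal RNA, GAPDH and ACTB controls, the 5 most alike, and up to 4 genes a list with the smallest p. NCL, POLR2H, POLR1D, POLR1H, TTF1, TAF1D, XRN2, SH3KBP1, the probe sets without a gene and the mitochondrial genes outside the 5 most alike were named after their values were seen. UBTF and RRN3 were named as examples of their list. A gene of a list is its brightest probe set. Software was Python 3.11.15 with numpy 2.4.6, pandas 2.3.3 and, for plots, matplotlib 3.10.9.

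Alternatives were median centring, quantile normalization, a shift to the spike-ins, floors of 1 and 100, no trend, a filter on low signals, a replicate block, all 9 arrays, unadjusted p, the methods' t-test, averaged probe sets, group medians and each replicate left out.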

Additional observations from a re-analysis of the deposited data

How the results depend on the processing

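For MVs minus EXOs, the log2 differences of RNA45SN5 and PTPRO 211600_at stayed at or past 2-fold under every alternative run, at 2.14 to 2.57 (225762_x_at) and 2.95 to 3.12 without a replicate and 1.78 and 1.72 with quantile normalization. TMEFF2 224321_at had 2.12 to 2.33 without a replicate and 0.53 with quantile normalization. Quantile normalization also gave log2 differences of hESEVs minus MVs of 1.57 for RNA45SN5 225762_x_at, 1.90 for TMEFF2 224321_at and 1.33 for PTPRO 211600_at, of hESEVs minus EXOs of 3.36 and 2.42 for the first and second of these, and places of 3.85, 10.1 and 3.19. It reversed, for MVs minus EXOs, the 18S middle (-1.37), 18S 3′ (-0.70) and 28S middle (-0.10) controls and, for hESEVs minus MVs, the 28S 5′ (1.27) and 28S middle (1.40) controls. It took the 18S 5′ control past the threshold (-2.04 for MVs minus EXOs, 1.77 for hESEVs minus MVs), as well as the 18S middle (1.31) and 3′ (2.30) controls for hESEVs minus MVs. Median centring gave 0.36, 0.34 and -0.20 for hESEVs minus MVs of the same 3 probe sets, and the spike-in shift 0.51 for RNA45SN5 225762_x_at. The cause of these changes was not tested.

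Of all probe sets, 1072 were higher in EXOs than in MVs. This was 447 by the methods' t-test after adjustment and 2650 before it, 3838 at an unadjusted p, 324 with median centring, 688 without the trend, 573 with a replicate block, and 560 to 788 without a replicate. For hESEVs minus MVs, 571 were higher in hESEVs (241 by the t-test after adjustment, 1744 before it, 2764 unadjusted, 221 with median centring, 339 with the spike-in shift, 297 to 588 without a replicate) and 2325 higher in MVs (1069 with quantile normalization, 3835 unadjusted). For hESEVs minus EXOs, 1074 were higher in hESEVs (328 by the t-test after adjustment, 1674 before it, 2409 unadjusted) and 56 higher in EXOs (16 and 660 by the t-test, 278 with quantile normalization, 24 with a replicate block, 1190 unadjusted). Same-numbered arrays of different groups did not deviate together over all tested probe sets, with correlations of -0.011 to 0.013. The numbers were not taken as pairs in the main fit. MVs and EXOs may come from the same cultures, and this check, which includes many dim probe sets, cannot exclude such pairs. The replicate block changed no call of the named probe sets. The filter on low signals dropped the dim probe sets of TMEFF2 and PTPRO that fell under it and gives no value for them.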
